A study of Homo sapiens with 10 samples.

Results

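The ATP-binding cassette (ABC) transporter family was described across DU145 and LNCaP, 2 human cell lines of prostate cancer. The members were the genes whose only annotated symbol was ABCA, ABCB, ABCC, ABCD, ABCE, ABCF or ABCG followed by digits, with pseudogenes and antisense genes left out. The rule used symbols and no measured value, and it found 41 of the 19775 genes measured. The members had 92 probe sets in all, and for each gene the probe set of highest mean was used. Of the 41 members, 24 passed the filter on low signal, which asked for a level above the median of the array on at least 2 of the 10 arrays, and were tested among 14277 genes.

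Total RNA of 10 samples was hybridised to Affymetrix expression arrays, 1 array per sample, to compare control cells with cells selected by a reporter. All cells carried an integrated vector with GFP and a puromycin resistance gene. In the controls the PGK promoter, which is active in most cells, drove both genes, and in the EOS cells enhancers of OCT4 and SOX2 drove them, so that growth in puromycin for some weeks kept cells in which the reporter was active. In each line PGK and EOS cells had 2 arrays apiece, and EOS cells given ribavirin, an antiviral nucleoside analogue, had 1. The labels tie the ribavirin array of each line to EOS number 2, and give neither its dose nor its duration. They do not say whether the numbered arrays came from separate transductions, pools or clones, so that the p-values rest on array-to-array spread that may be technical only. DU145 and LNCaP are established lines grown from metastases of prostate cancer; LNCaP responds to androgen and DU145 lacks that response.

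Levels below are log2(intensity + 16) after every array was scaled to a 2% trimmed mean of 500, so that the lowest possible level is 4. Differences are on the same log2 scale, with the standard error (SE) of the limma fit, and understate the change of dim genes. The arrays numbered 1 were deposited with a trimmed mean of 500, and those numbered 2 with trimmed means from 96.56 to 126.5. The 3'/5' signal ratio of control probe sets can rise as the RNA shortens. For ACTB it was 1.24 to 1.51 on the arrays numbered 1 and 3.20 to 3.99 on those numbered 2. For GAPDH it was 0.96 to 1.06 and 1.09 to 1.22. What raised the ACTB ratio was not tested. Each PGK and EOS group holds 1 array of each number, and both ribavirin arrays are numbered 2. The labelled lines carried their own markers: 4 of 4 tested LNCaP markers, among them KLK3 at 9.61 ± 0.17 above DU145, were higher in LNCaP, and 4 of 4 tested DU145 markers, among them CD44 and VIM, were lower. Of the markers of other cells, COL3A1 of fibroblasts gave a LNCaP minus DU145 difference of -2.52 and VWF of endothelium 1.75. COL3A1 was high only on DU145 EOS 2 and the DU145 ribavirin array, at 9.01 and 8.63. On the other DU145 arrays it was 5.71 to 6.25. The median difference of the 3 tested fibroblast markers was -0.23. The 4 LNCaP markers and VWF were above the median of the array only in LNCaP, and CD44, ZEB1 and COL3A1 only in DU145. The summed intensity of the fibroblast list was 334 to 1150 in DU145 and 305 to 825 in LNCaP, of the leukocyte list 66.0 to 147 and 57.2 to 104, and of the endothelial list 95.1 to 195 and 141 to 324. Their part in the results below was not tested. In bulk RNA, fewer cells that express a gene and less RNA per cell cannot be told apart.

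ABC proteins bind and hydrolyse ATP, and most use it to carry a substrate across a membrane. Members of the ABCB, ABCC and ABCG branches export drugs, conjugates and nucleotides from cells, and are known for lowering the drug content of cancer cells. The ABCA members and several ABCG members move cholesterol and phospholipids, the ABCD members serve peroxisomes and lysosomes, and the ABCE and ABCF members have no membrane part and act in translation.

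The 250 bases before the annotated gene start are shown for ABCC10, ABCC4 and ABCG2, drug efflux members that differed between the lines, as RefSeq gives them on GRCh38.p14. They are printed 5' to 3' on the strand of the gene, and capitals mark GC boxes, the letters GGGCGG or their complement CCGCCC.
ABCC10, chr6:43427613-43427862, plus strand: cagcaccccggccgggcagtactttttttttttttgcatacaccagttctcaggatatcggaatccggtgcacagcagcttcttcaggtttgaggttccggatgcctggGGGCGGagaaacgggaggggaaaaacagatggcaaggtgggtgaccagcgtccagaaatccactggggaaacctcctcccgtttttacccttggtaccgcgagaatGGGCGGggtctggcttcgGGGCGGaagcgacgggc
ABCC4, chr13:95301452-95301701, minus strand: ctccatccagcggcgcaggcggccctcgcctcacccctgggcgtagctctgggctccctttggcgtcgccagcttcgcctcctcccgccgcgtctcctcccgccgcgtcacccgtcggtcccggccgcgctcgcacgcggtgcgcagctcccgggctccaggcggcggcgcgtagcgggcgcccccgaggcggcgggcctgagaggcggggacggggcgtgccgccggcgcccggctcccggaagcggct
ABCG2, chr4:88231627-88231876, minus strand: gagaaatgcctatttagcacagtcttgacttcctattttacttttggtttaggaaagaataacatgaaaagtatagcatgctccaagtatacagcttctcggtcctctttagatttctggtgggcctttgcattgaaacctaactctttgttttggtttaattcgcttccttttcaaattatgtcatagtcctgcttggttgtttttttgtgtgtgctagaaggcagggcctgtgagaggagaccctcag
Promoters of the same length were found for 33 of the 41 members. The GC box, searched on both strands, had 3 matches in ABCC10 and 0 in the windows of ABCC4 and ABCG2. It was present in 18 of the 33 member promoters and in 42.3% of all 27305 promoters. The ABCC4 window held 1 match to TGACNNNGC, the core of the antioxidant response element, which occurred in 6 of 33 members and 11% of all promoters. It also held 2 matches to GCGTG, the core bound by the aryl hydrocarbon receptor, which occurred in 12 of 33 members and 31.9% of all promoters. The letters TATAAA were absent from the 3 windows and present in 4 of 33 members and 11.1% of all promoters. No 2 matches of different motifs overlapped. The share of G and C bases was 58.0% in ABCC10, 80.4% in ABCC4 and 40.0% in ABCG2, against a median of 58.0% over all promoters, and the windows held 16, 42 and 2 CpG sites against a median of 11. A match describes the letters only. A single annotated start per gene was used, and promoters at other starts of these genes were not looked at.

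The lines differed in the level of some transporters, with ABCC3, ABCC10 and ABCA1 lower and ABCC4 higher in LNCaP. Over the mean of the PGK, EOS and ribavirin states, 5 arrays per line, 11 of the 24 tested members passed limma's test with a Benjamini-Hochberg adjusted p under 0.05, 4 higher and 7 lower in LNCaP. Over all tested genes 48.5% passed, 23.5% higher and 25.0% lower, so that the share of members lay near, and not above, the background. Without the filter, 12 of all 41 members passed, against 34.1% of genes. The median absolute difference of all 41 members was 0.37, against 0.44 over all measured genes.

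Among the 10 drug efflux members, ABCC3, which exports glucuronide conjugates and bile acids, had the largest difference of the family. In DU145 its level was 10.78 and 10.45 on the PGK arrays, 10.63 and 9.95 on the EOS arrays and 9.55 on the ribavirin array. In LNCaP it was 4.18 and 4.35, then 4.39 and 4.71, then 4.61, close to the lowest possible level. All 5 DU145 arrays lay far above all 5 LNCaP arrays. The difference was -5.68 ± 0.23 (limma, adjusted p = 4.75e-07, 5 arrays per line), but its size was set by the pseudocount, with -7.37 for a pseudocount of 1 and -4.08 for 64. All 5 probe sets of the gene were lower in LNCaP, by differences from -5.68 to -1.17, and the mean of the probe sets gave -3.20. ABCC3 passed the filter only through its DU145 arrays, so that a difference between the lines was required for it to be tested.

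ABCC4, which exports cyclic nucleotides, urate and nucleoside analogues, was the efflux member most elevated in LNCaP. Its level in DU145 was 10.85 and 10.75 with PGK, 9.98 and 11.14 with EOS and 10.90 with ribavirin. In LNCaP it was 13.49 and 12.85, then 13.41 and 12.49, then 12.77. The 2 lines did not overlap. The difference was 2.21 ± 0.28, a 4.64-fold higher level in LNCaP (limma, adjusted p = 0.000274). Within the arrays numbered 1 it was 3.04 and within those numbered 2 it was 1.78. The other 3 probe sets of ABCC4 were also higher in LNCaP.

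ABCC10, a broad exporter that can carry taxanes, was lower in LNCaP on every array. In DU145 it stood at 10.81 and 10.78 with PGK, 10.66 and 10.60 with EOS and 11.02 with ribavirin. In LNCaP it stood at 8.65 and 9.04, then 8.67 and 8.78, then 8.95. Within each line the arrays lay close together, and the lines were far apart. The difference was -1.98 ± 0.14, a 3.93-fold change (limma, adjusted p = 1.08e-05), and its second probe set gave -1.22.

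ABCG2, the breast cancer resistance protein, exports many drugs and marks side population cells in stem cell research. Its level in DU145 was 8.94 and 8.25 with PGK, 8.54 and 7.82 with EOS and 7.34 with ribavirin. In LNCaP it was 5.85 and 6.88, then 5.51 and 7.19, then 7.68. The LNCaP ribavirin array lay above the DU145 one, so that the lines overlapped. The difference was -1.24 ± 0.40 (limma, adjusted p = 0.0320). It was -3.07 within the arrays numbered 1 and -0.55 within those numbered 2, where it did not pass (adjusted p = 0.232). The LNCaP arrays numbered 2 were above those numbered 1 by 1.04 in PGK and 1.69 in EOS cells, while the DU145 arrays numbered 2 were lower, by -0.69 and -0.73. With either ribavirin array left out, the difference was taken over the PGK and EOS states alone and was -2.03. The call was also lost without DU145 PGK 1 (adjusted p = 0.0831), DU145 EOS 1 (0.0820) or LNCaP PGK 1 (0.0592), and with quantile normalization (0.0589).

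ABCC1, the multidrug resistance protein that exports glutathione conjugates, was higher in LNCaP by 0.68 ± 0.17 (limma, adjusted p = 0.00860). Its DU145 level was 11.77 and 11.59 with PGK, 11.67 and 11.56 with EOS and 11.36 with ribavirin, and its LNCaP level 11.87 and 11.38, then 12.04 and 12.64, then 12.74. The PGK arrays of the lines overlapped and the EOS and ribavirin arrays of LNCaP were the high ones. On the PGK arrays alone the difference was -0.052. The second probe set of ABCC1 gave a line difference of 0.80, and 0.45 on the PGK arrays, where it did not overlap, at 8.10 on both DU145 arrays against 8.79 and 8.32 in LNCaP. On the brightest probe set the line difference was 0.23 within the arrays numbered 1 and 0.75 within those numbered 2, and passed in neither. With either ribavirin array left out, this difference was taken over the PGK and EOS states alone. It was then 0.34 and did not pass (limma, adjusted p = 0.149 without the DU145 array and 0.152 without the LNCaP one).

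ABCC5, an exporter of cyclic nucleotides and nucleoside analogues, was 9.55 to 9.81 in DU145 and 9.21 to 9.69 in LNCaP. Its difference of -0.23 ± 0.14 did not pass (limma, adjusted p = 0.224), while its 2 other probe sets gave -1.04 and -0.82. On these the lines did not overlap, at 8.73 to 9.29 in DU145 against 7.63 to 8.24 in LNCaP on the first and 8.85 to 9.39 against levels up to 8.46 on the second, and the mean of the 3 probe sets passed (adjusted p = 0.00415). ABCC11, which exports lipophilic anions and is known for the earwax trait, was 5.57 to 6.72 in DU145 and 4.46 to 6.38 in LNCaP, with a difference of -0.23 ± 0.44 (adjusted p = 0.704). The lines overlapped for ABCC11, and for ABCC5 only on the brightest probe set.

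The other 3 drug efflux members were too dim to test. P-glycoprotein, encoded by ABCB1 and the best known drug pump, was 4.68 to 5.62 in DU145 and 4.81 to 6.18 in LNCaP. ABCB5, described in melanoma stem cells, was 4.26 to 5.49 and 4.57 to 6.03, and ABCC2, the apical exporter of conjugates in liver, was 4.94 to 6.16 and 4.15 to 5.84. The lines overlapped for each of them. A probe set shared by ABCB1 and ABCB4 was not used.

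**Figure D1:**
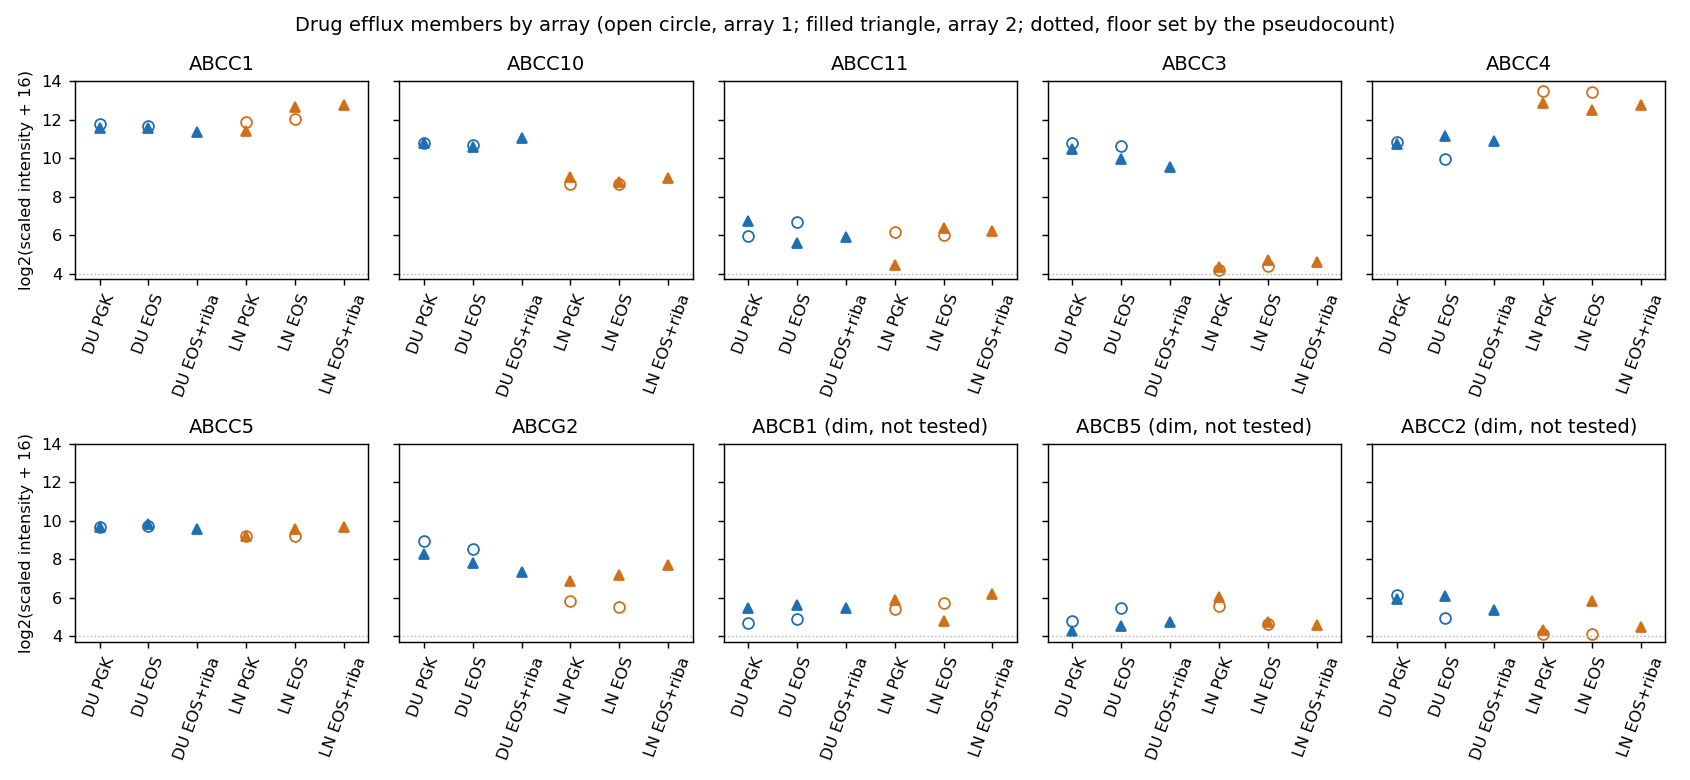
Level of each drug efflux member on each of the 10 arrays, as log2(scaled intensity + 16), by line and state (PGK, EOS, ribavirin), with 1 point per array. ABCB1, ABCB5 and ABCC2 are marked as dim and not tested. ABCC3 lies at 9.55 to 10.78 in DU145 and 4.18 to 4.71 in LNCaP, ABCC4 is the member highest in LNCaP relative to DU145, and the ABCG2 arrays of LNCaP spread from 5.51 to 7.68.

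Of the 11 ABCA members, which transport lipids, 5 were tested, and 3 were lower in LNCaP. ABCA1, the exporter of cholesterol and phospholipid to apolipoprotein, was 8.18 and 8.47 with PGK, 6.95 and 8.21 with EOS and 8.44 with ribavirin in DU145. In LNCaP it was 5.80 and 5.54, then 5.30 and 5.90, then 4.96. The lines did not overlap, and the difference was -2.71 ± 0.32 (limma, adjusted p = 0.000178). As with ABCC3, only the DU145 arrays took the gene through the filter. The size also moved with the pseudocount, from -3.29 at 1 to -1.85 at 64, and to -1.16 for the mean of its 4 probe sets. A second probe set gave -1.98, also without overlap, and the remaining ones were never above the median of the array.

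ABCA5, a lysosomal member, was 8.87 and 9.28 with PGK, 8.72 and 9.56 with EOS and 9.34 with ribavirin in DU145. In LNCaP it was 8.03 and 7.03, then 7.91 and 7.55, then 7.49, below every DU145 array. Its difference was -1.60 ± 0.28 (limma, adjusted p = 0.00149), with -0.82 within the arrays numbered 1 and -2.04 within those numbered 2. ABCA7, a phagocytosis and lipid gene, was 8.31 to 8.74 in DU145 and 7.75 to 8.38 in LNCaP. Its difference of -0.56 ± 0.20 (adjusted p = 0.0459) was near the threshold and was lost under 12 of 20 alternative settings. Among them was the loss of any 1 array other than DU145 EOS 1, LNCaP PGK 1 or LNCaP EOS 1, with differences from -0.62 to -0.45. For the loss of a ribavirin array, at -0.45, the difference was taken over the PGK and EOS states alone. ABCA2 and ABCA3, a lysosomal lipid transporter and the surfactant lipid transporter of lung, did not pass, with differences of -0.20 each, and a second probe set of ABCA2 gave 0.25.

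The sterol transporters of the ABCG branch, ABCG1 and ABCG4, did not pass between the lines. ABCG1, which exports cholesterol to lipoproteins, was 6.75 to 8.11 in DU145 and 7.15 to 7.59 in LNCaP, a difference of -0.37 ± 0.28 (limma, adjusted p = 0.302). Its 3 other probe sets gave -0.69, -2.07 and -1.58. ABCG4 was 6.08 to 7.25 and 5.57 to 6.57, with a difference of -0.71 ± 0.32 (adjusted p = 0.0965). On the brightest probe set the arrays of the lines overlapped for both genes. On the ABCG1 probe set that gave -2.07 they did not, at 6.51 to 7.84 in DU145 against 4.60 to 6.06 in LNCaP. The mean of all ABCG1 probe sets passed (limma, adjusted p = 0.0101). ABCG5 and ABCG8, which together export plant sterols, were too dim to test.

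In the ABCD branch the 2 tested members went opposite ways. ABCD3, a peroxisomal fatty acid transporter, was 11.63 to 11.92 in DU145 and 12.08 to 12.80 in LNCaP, without overlap, a difference of 0.71 ± 0.17 (limma, adjusted p = 0.00763). Its other probe set gave -0.37, and the mean of its probe sets gave 0.17 and lost the call. It was also not called on the PGK arrays alone, at 0.66. ABCD4, which serves vitamin B12 export from lysosomes, was 9.57 to 9.95 in DU145 and 8.67 to 9.18 in LNCaP, without overlap, a difference of -0.76 ± 0.15 (adjusted p = 0.00359). On the other probe set of ABCD4 the lines overlapped, at 5.96 to 6.70 in DU145 and 5.48 to 6.24 in LNCaP. That probe set gave -0.49 over all states and 0.19 on the PGK arrays.

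Of the 4 soluble members, ABCF3 alone passed the test between the lines. Its level in DU145 was 9.11 and 9.08 with PGK, 9.22 and 8.89 with EOS and 8.31 with ribavirin, and in LNCaP 9.70 and 9.57, then 9.56 and 9.41, then 9.19. The LNCaP ribavirin array lay just below the highest DU145 array. The difference was 0.62 ± 0.15 (limma, adjusted p = 0.00899), and the call was lost on the PGK arrays alone and within the arrays numbered 1. ABCE1, which recycles ribosomes, gave -0.09, ABCF1 gave -0.32 and ABCF2 gave 0.00. The other 4 probe sets of ABCF2 lay on the lower side, at -0.20, -2.17, -0.23 and -0.59. Among the 4 organelle members of the ABCB branch, which serve mitochondria or lysosomes, none passed: ABCB10 gave 0.41, ABCB6 gave -0.05, ABCB8 gave 0.04 and ABCB9 gave -0.26, where a second probe set of ABCB9 gave 0.11.

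On the brightest probe set, the 5 arrays of each line did not overlap for 7 of the 41 members, against 31.2% of all measured genes. These were ABCC4 and ABCD3 on the higher side of LNCaP and ABCC3, ABCC10, ABCA1, ABCA5 and ABCD4 on the lower side. All 7 were among the 24 tested members, against 42.5% of all tested genes. The 17 members that were not tested overlapped in every case, and no share of untested genes was computed to set beside this. Their levels ran from 4.03 to 6.26 over the 10 arrays with a median of 4.89. They were ABCB1, ABCB5, ABCC2, the bile transporters ABCB4 and ABCB11, the channel regulators ABCC8 and ABCC9, ABCC12, ABCA4, ABCA6, ABCA8, ABCA9, ABCA12, ABCA13, ABCG5, ABCG8 and ABCD2.

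**Figure D2:**
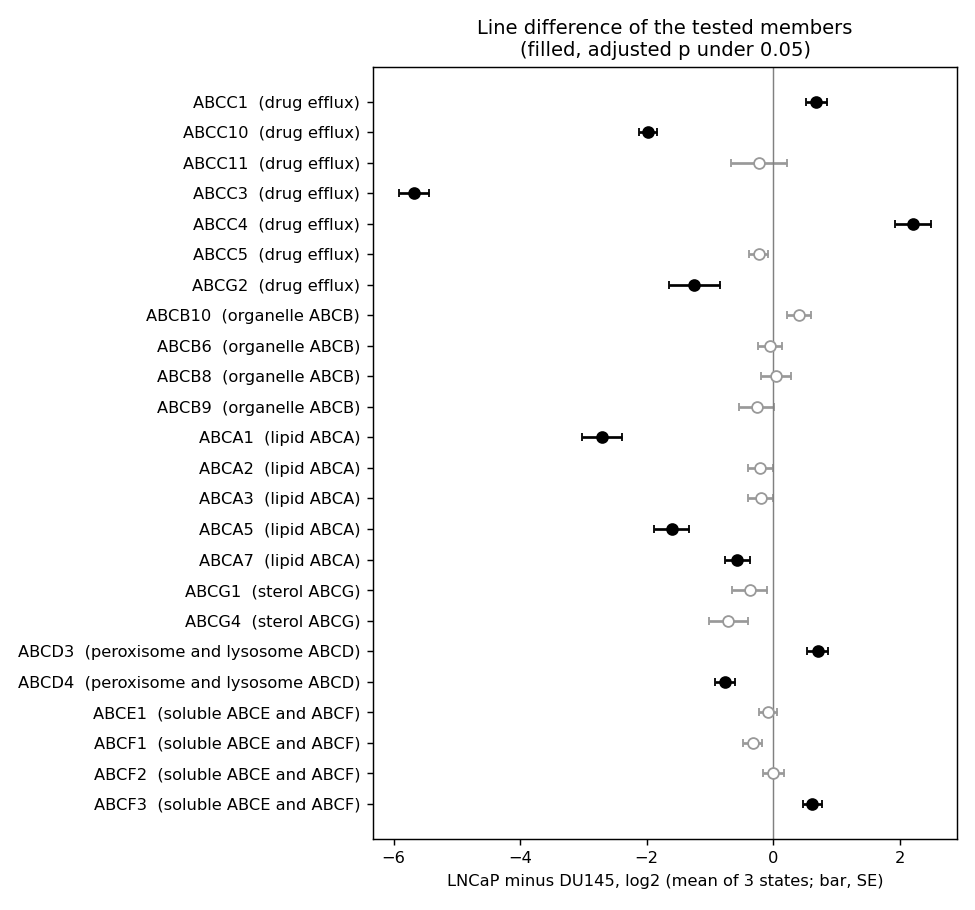
Difference between LNCaP and DU145 of the 24 tested members on the log2 scale, as the mean of 3 states, with bars for the SE and filled points for an adjusted p under 0.05. The filled points run from ABCC3 at -5.68 to ABCC4 at 2.21, with 7 on the lower and 4 on the higher side.

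The genes around the transporters also differed between the lines. Of the family members under other symbols, TAP2, a peptide transporter of antigen presentation, was lower in LNCaP at -1.02 ± 0.16, and TAP1 at -0.49 did not pass, so that 1 of 2 tested genes passed. Of 15 tested transcriptional regulators of the family, 3 were higher and 7 lower in LNCaP. The higher ones were VDR, NR1H3 and RXRA, nuclear receptors for vitamin D, oxysterols and retinoids, at 1.36, 0.91 and 0.47. The lower ones were the xenobiotic receptor AHR at -2.59, its partner ARNT at -0.66, the hypoxia factors EPAS1 at -2.44 and HIF1A at -0.61, PPARG at -1.57, the oxidative stress factor NFE2L2 at -0.98 and SP1 at -0.57.

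Of 8 tested partner and scaffold genes, 3 were higher in LNCaP (NHERF1 at 1.48, APOA1 at 0.74 and PEX19 at 0.50) and 3 were lower (EZR at -1.98, MSN at -1.95 and RDX at -0.69). The last 3 encode ezrin, moesin and radixin, which tie membrane proteins to actin. Of 14 tested solute carriers, 5 were lower and 0 higher: SLC47A1 at -5.00, SLCO1B3 at -2.74, SLC22A4 at -2.08, SLC29A1 at -1.43 and SLCO4C1 at -1.40. SLC29A1 encodes an equilibrative nucleoside transporter, the kind of carrier by which ribavirin enters cells. Of these, SLC47A1, SLCO1B3 and SLCO4C1 were above the median of the array only in DU145, so that a difference was required for them to be tested. SLC22A4 was above it on 5 DU145 arrays and 1 LNCaP array, and so also passed the filter only through DU145. The count of 5 to 0 is a description only. These lists are read against the same 48.5% of tested genes.

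EOS selection did not move any member past the test. In DU145, in LNCaP, in the mean of both lines and in the difference of the effect between lines, 0 of 24 tested members had a limma adjusted p under 0.05, as had 0.0% of all tested genes. An unadjusted p under 0.05 was reached by 0 members in DU145 (1.57% of genes), 3 in LNCaP (4.17%), 0 in the mean (2.04%) and 2 in the difference between lines (3.24%). With 2 arrays per group the SE of a member's effect was 0.21 to 0.67 within a line, which is the limit on what could be seen.

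The member of smallest p was ABCA2 in LNCaP. Its LNCaP level was 6.82 and 7.05 with PGK and 7.94 and 8.27 with EOS, so that both EOS arrays lay above both PGK arrays. Its effect was 1.17 ± 0.30 by limma's test across all genes (unadjusted p of 0.00384, adjusted p = 0.999). The pairs gave 1.13 and 1.22. In DU145 the level was 8.04 and 7.72 with PGK and 7.80 and 7.51 with EOS, an effect of -0.22 ± 0.30. The effect in LNCaP minus that in DU145 was 1.40 ± 0.42 (adjusted p = 1.00), and the mean of both lines was 0.47 ± 0.21.

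ABCC1 had an effect of 0.71 ± 0.25 in LNCaP (limma, adjusted p = 0.999), but only 0.17 in pair 1 against 1.26 in pair 2. Its second probe set gave 0.33 in LNCaP and 0.29 in DU145, with 1 sign in all 4 pairs. Its effect in DU145 was -0.06, and the difference between lines was 0.78 ± 0.35 on the brightest probe set. ABCE1 had an effect of -0.57 ± 0.21 in LNCaP, from -0.37 and -0.76 in the pairs, 0.14 in DU145, and a difference between lines of -0.70 ± 0.30 (adjusted p = 1.00). The LNCaP arrays of ABCE1 were 12.01 and 12.30 with PGK and 11.64 and 11.53 with EOS, without overlap.

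In DU145 the 3 members of smallest p were ABCG1 at -0.66 ± 0.41, ABCA1 at -0.75 ± 0.48 and ABCG4 at -0.54 ± 0.47 (limma, adjusted p = 1.00 for each). Pair 1 gave -1.37 for ABCG1 and -1.23 for ABCA1, and pair 2 gave 0.04 and -0.26. The second kept probe set of ABCA1 gave like values in both pairs, -0.61 and -0.64, and in LNCaP it gave 0.59 and 0.51, where the brightest one gave -0.50 and 0.36. The 3 other kept probe sets of ABCG1 gave -0.10, -0.30 and -0.28 in DU145 as the mean of both pairs.

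The other drug efflux members did not pass in either line. ABCG2 had an effect of -0.42 ± 0.61 in DU145, from -0.40 and -0.43 in the pairs, and -0.01 ± 0.61 in LNCaP, from -0.34 and 0.31. ABCC3 had -0.33 ± 0.35 and 0.29 ± 0.35, the latter close to the lowest level, and ABCC4 had -0.24 ± 0.42 and -0.22 ± 0.42. ABCC5 had 0.08 ± 0.22 and 0.19 ± 0.22, ABCC10 had -0.16 ± 0.22 and -0.11 ± 0.22, and ABCC11 had -0.21 ± 0.67 and 0.90 ± 0.67.

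**Figure D3:**
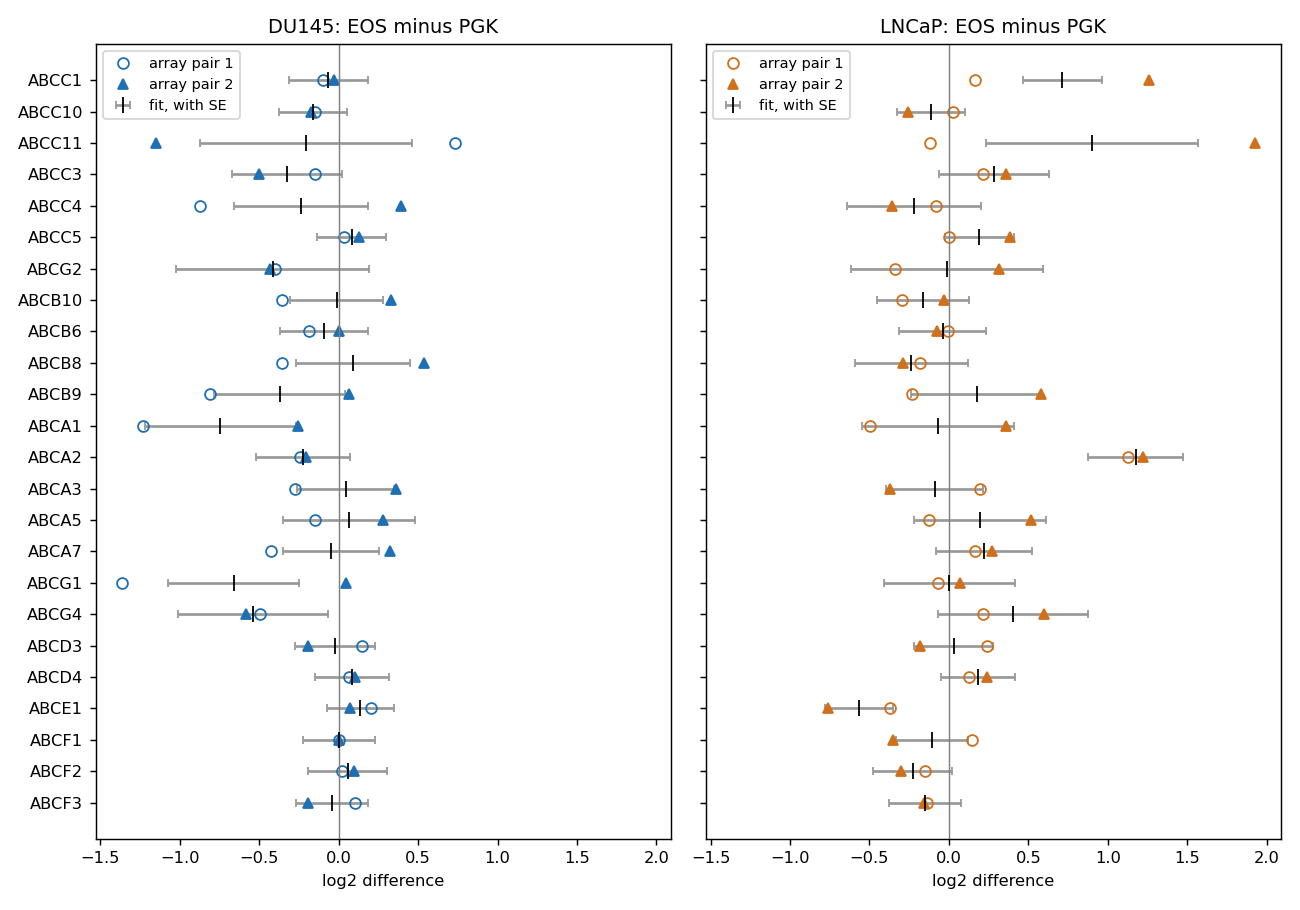
EOS minus PGK of the 24 tested members in each of the 2 array pairs of DU145 and LNCaP, on the log2 scale, with 1 point per pair. ABCA2 lies at 1.13 and 1.22 in LNCaP, while ABCC1 spreads from 0.17 to 1.26 there.

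Ribavirin treatment of EOS cells also left 0 of 24 members with a limma adjusted p under 0.05 in DU145, in LNCaP, in the mean of both lines and in the difference between lines, as it left 0.0% of genes. An unadjusted p under 0.05 was reached by 1 member in DU145 (1.74% of genes), 0 in LNCaP (2.03%), 1 in the mean (1.77%) and 0 in the difference (1.55%). Each line had 1 ribavirin array, taken to vary like the other groups, against 2 EOS arrays of which only number 2 shares its source.

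ABCF3 had the smallest p in DU145, where the ribavirin array at 8.31 lay below EOS arrays at 9.22 and 8.89. Its effect was -0.74 ± 0.28 there (limma, adjusted p = 1.00), -0.58 against EOS 2 alone, and -0.52 ± 0.20 over both lines. ABCC3 had an effect of -0.74 ± 0.42 in DU145, or -0.39 against EOS 2 alone, and ABCA1 had 0.87 ± 0.58, or 0.24 against EOS 2 alone. In LNCaP the smallest p belonged to ABCG2, at 1.33 ± 0.74, with 0.49 against EOS 2 alone.

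ABCB8, a mitochondrial member, had 0.67 ± 0.44 in LNCaP, with 0.91 against EOS 2 alone, and 0.47 ± 0.31 over both lines. Its other probe set went the opposite way, at -0.23 in LNCaP and -0.99 in DU145 against both EOS arrays. ABCC1 had 0.40 ± 0.30 in LNCaP, with 0.10 against EOS 2 alone. ABCC10 had 0.31 ± 0.19 over both lines. For the effect in LNCaP minus that in DU145, ABCG2 had 2.17 ± 1.05, ABCA1 had -1.51 ± 0.83 and ABCC1 had 0.65 ± 0.43 (limma, adjusted p = 1.00 for each). Where the value against both EOS arrays and that against EOS 2 alone differ, array EOS 1 makes the difference. The EOS and ribavirin comparisons share their EOS arrays.

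**Figure D4:**
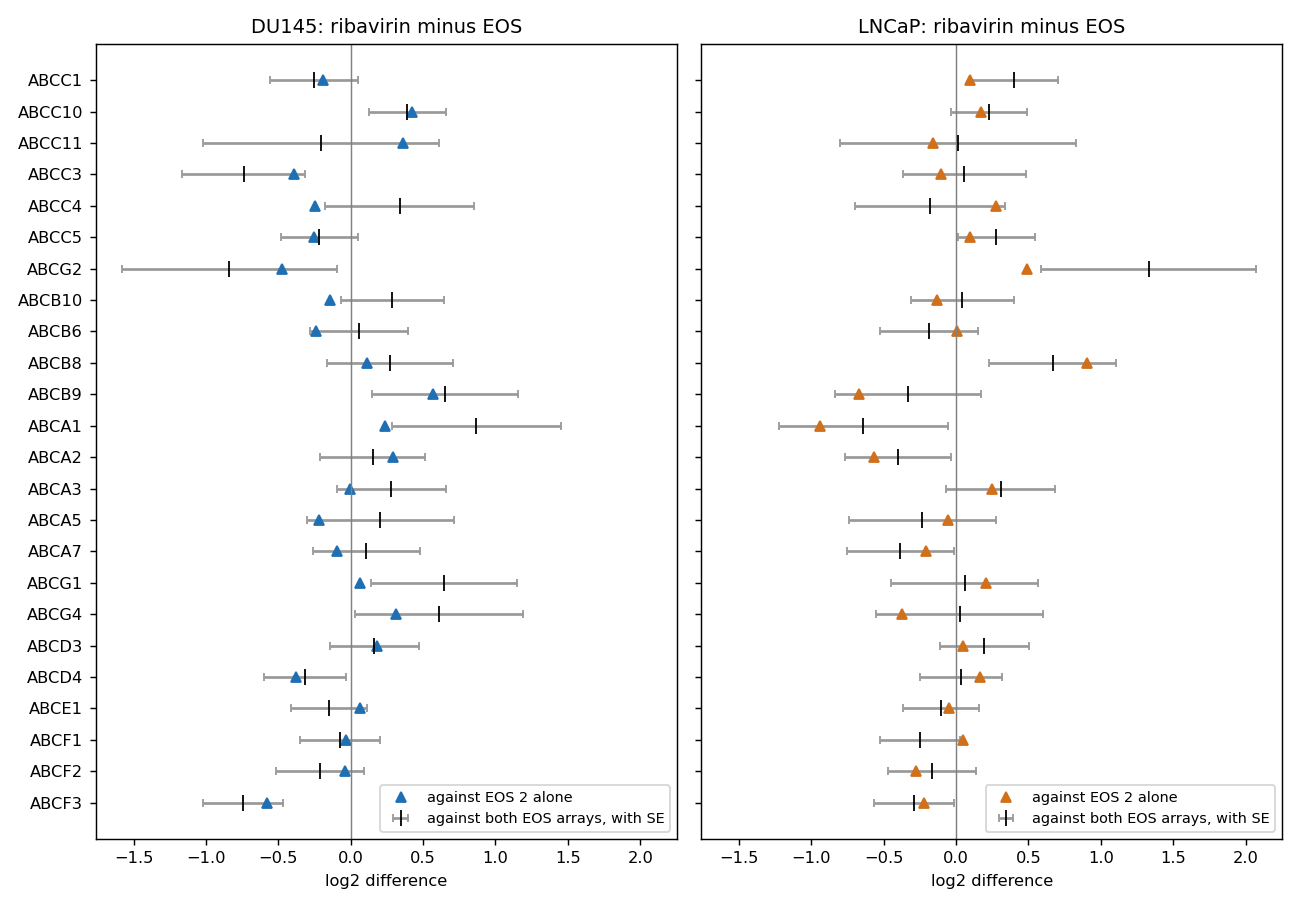
Ribavirin minus EOS of the 24 tested members in DU145 and LNCaP on the log2 scale, with a bar for the value against both EOS arrays and its SE and a triangle for the value against EOS 2 alone. ABCG2 in LNCaP lies at 1.33 against both arrays and at 0.49 against EOS 2 alone.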

How the data were processed

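The authors deposited linear intensities of 54675 probe sets. MAS5 and affy appear in the submitters' processing notes, with no version or role, and how background was handled is not given in the sources used here. Because the deposited intensities had different trimmed means, each array was scaled to a 2% trimmed mean of 500 and log2(intensity + 16) was taken. The 62 array controls were left out. Of the rest, 41091 probe sets had 1 gene symbol in the platform annotation and 1801 had several, which were not used; 41037 of these were found by Entrez identifier among current genes, with 0 symbols changed. Per gene the probe set of highest mean was taken, and genes above the median of the array on at least 2 of 10 arrays were tested.

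All 6 groups were fitted together by limma 3.58.1 in R 4.3.3 as group means (4 residual degrees of freedom, empirical Bayes with an intensity trend), with Benjamini-Hochberg adjustment over the 14277 tested genes at 0.05. The scripts were tested on simulated data. The deviations of same-numbered PGK and EOS arrays had a correlation over genes of 0.121 in DU145 and 0.485 in LNCaP. The numbers also go with the deposited scale and the ACTB ratio, so the correlation cannot show that cultures were paired. Pairs here are arrays of the same number, and a fit with the number as a block was an alternative. Other alternatives changed the pseudocount, filter, normalization and probe set rule, compared within pairs or numbers, and left out each array. The number of arrays limits the precision.

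Members and gene lists were chosen with earlier results of these data known. Named with values were all drug efflux members, members passing in any contrast, the 3 of smallest p in the others, members with a probe set of opposite sign, and genes of the other lists that passed.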

Additional observations from a re-analysis of the deposited data

Results flagged for a closer look

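For 6 of 24 tested members, EOS minus PGK had 1 sign in both array pairs of DU145 and the other sign in both pairs of LNCaP, as for 15.3% of all tested genes. The effect in LNCaP minus that in DU145 was 1.40 for ABCA2, 0.94 for ABCG4, 0.78 for ABCC1, 0.61 for ABCC3, -0.28 for ABCF2 and -0.70 for ABCE1. Another kept probe set gave the same opposite signs in every pair for ABCA2 and ABCE1, but none did for ABCC1, ABCC3 or ABCF2, and ABCG4 had no other. The second probe set of ABCC1 gave 0.41 and 0.18 in DU145, and 0.17 and 0.49 in LNCaP. The Benjamini-Hochberg adjusted p = 1.00 from limma for the difference held for each. ABCA2 had -0.24 and -0.21 in the pairs of DU145, and 1.13 and 1.22 in those of LNCaP. ABCG4 had -0.49 and -0.58, then 0.21 and 0.60. ABCC3 had -0.15 and -0.50, then 0.21 and 0.36. No group had enough arrays to look for an array that stood apart from its group.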

How the results depend on the processing

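No EOS or ribavirin contrast gained a member under any alternative run, and the smallest adjusted p of a member was 0.304, for EOS in LNCaP. Between the lines, 9 to 12 members passed with each array left out (41.4% to 48.4% of genes), and 13 with the replicate block (52.7%), which left 0 members in the EOS and ribavirin contrasts. Where the array left out was a ribavirin one, the line difference was taken over the PGK and EOS states alone. Without scaling, 1 member passed between the lines, and 442 of all genes (3.1%). ABCC10, ABCC4, ABCA1, ABCA5 and ABCD4 lost their call only without scaling. Signs turned for values that had not passed: EOS in DU145 gave 0.019 for ABCC3 without DU145 EOS 2 (lowest with an array left out, -0.67) and 0.34 for ABCC4 without DU145 EOS 1 (lowest -0.82); EOS in LNCaP gave 0.10 and 0.24 for ABCC4 without LNCaP PGK 1 or LNCaP EOS 2 (lowest -0.68), 0.027 for ABCG2 with a pseudocount of 64, and 0.83 and 0.50 for ABCG2 without LNCaP EOS 1 or LNCaP PGK 2 (lowest -0.86). Over all probe sets, ribavirin in the mean of both lines gave -0.071 for ABCB8. For ABCC1, which had passed, the line difference was -0.052 on the PGK arrays. The cause was not tested. Signal near background limits ABCC3, ABCA1 and ABCG2 in LNCaP, ABCC11 and ABCG4, and the 17 members not tested. ABCC11 was above the median of the array on 2 arrays of each line, and ABCG4 on 4 DU145 and 2 LNCaP arrays. ABCG2 was above it on 3 LNCaP arrays, but below it on LNCaP PGK 1 and LNCaP EOS 1, at 5.85 and 5.51. The ABCG2 line difference within the arrays numbered 1 rests on these. Over all states it was -1.42 with a pseudocount of 1 and -0.93 with 64, and passed with each.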

Other observations

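Without the filter on low signal, ABCA6 was higher in LNCaP by 0.86 (limma, adjusted p = 0.0256) and ABCA8 lower by a difference of -1.08 (adjusted p = 0.0406), both at levels near the bottom of the scale, at 4.39 to 6.26 and 4.13 to 6.21 over the 10 arrays. Taking the mean of all probe sets in place of the brightest one, 13 of 24 members passed between the lines, against 43.8% of all tested genes. The 13 held ABCC5, ABCF2 and ABCG1, and did not hold ABCD3.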
